A study of Mus musculus with 2 samples.

Results

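The Tcrb and Tcrg loci, which encode the beta and gamma chains of the mouse T cell receptor, held 56 of the 51660 CTCF-bound regions listed on the autosomes and the X chromosome. A region is a run of adjoining 25 bp windows that the authors placed in peaks. It was counted when its midpoint fell between positions 40600000 and 41800000 of chromosome 6 (Tcrb with flanks, 38 regions) or between 19000000 and 19700000 of chromosome 13 (Tcrg with flanks, 18 regions), both in the mm9 build. These bounds used position only and no measured value.

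The data come from a chromatin immunoprecipitation and sequencing (ChIP-seq) experiment on CD4+CD8+ (double-positive) thymocytes, the thymic stage at which alpha chain genes are normally rearranged. The mice were C57BL/6 animals aged 4 to 8 weeks with the genotype Rag1 -/- and a TCRbeta transgene that was already rearranged. The labels list 2 libraries of that genotype, 1 precipitated with an antibody against CTCF and 1 input control. The regions are those of the precipitated library, and the input control was not used here. Rag1 encodes a subunit of the recombinase that joins V, D and J segments, so in its absence the endogenous Tcrb and Tcrg loci keep their germline order. A beta chain transgene lets Rag1-deficient thymocytes proceed to the double-positive stage. The labels do not say which Trbv, Trbd, Trbj or Trbc sequences the transgene carries, nor how reads that fit several places were handled, so regions of the endogenous Tcrb locus and reads from the transgene cannot be told apart. The labels do not say how many animals were pooled.

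CTCF binds a long DNA motif through its zinc fingers and, with the cohesin complex, marks the anchors of chromatin loops. At antigen receptor loci, looping brings distant V segments near the D and J segments that they recombine with, and CTCF sites are known to take part both among V segments and at the borders of the recombining domain. In Tcrb most V segments lie on the low-coordinate side of 2 D/J/C clusters, Trbd1 to Trbc1 and Trbd2 to Trbc2, and Trbv31 lies beyond Trbc2. In Tcrg the V segments are mixed with 4 J/C cassettes. The gene table lists 35 Trbv segments (13 of them pseudogenes), 2 Trbd, 14 Trbj and 2 Trbc, and 7 Trgv, 4 Trgj and 4 Trgc. It is on the GRCm38 build and served for names and gene order only, so regions are placed in parts of a window and not assigned to a segment, promoter or enhancer.

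The file gives no height, read count or score for a region. Its position and width are therefore the only readouts, and the depth of the library is unknown. With 1 CTCF library there is no replicate and no test between conditions, and every interval given is an exact 95% interval that covers counting error alone. Across all 51660 regions the median width was 525 bp and the most frequent width was 625 bp. Regions within 50 bp of the latter, 575 to 675 bp wide, are called full-width below, and 35.3% of all regions were of this kind. Regions of at most 75 bp made up 14.1%. A region's width depends on the peak caller's threshold as well as on binding, so width is not a measure of occupancy.

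The V part of Tcrb consisted largely of full-width regions. It was taken as 40.84 to 41.24 Mb, from Trbv1 to Trbv30, and held 19 regions. This was 47.5 regions per Mb (95% Poisson interval 28.6 to 74.2), compared with 18.7 per Mb over chromosome 6 and 19.6 over the genome. The regions covered 10500 bp, 2.625% of the V part, against 0.865% of the genome. Of the 19, 12 were full-width (63.2%, exact binomial interval 38.4 to 83.7%), next to 35.3% of all regions, and 0 were at most 75 bp wide, next to 14.1%. At or above the genome median width were 16 of the 19, a class that held 51.8% of all regions. Their median width was 575 bp. Cut into 6584 tiles of 0.4 Mb, the genome had a median of 4 regions per tile, and 86.8% of the tiles held fewer than 19. The number in the V part thus lies in the upper range of the genome, but not beyond it.

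**Figure D1:**
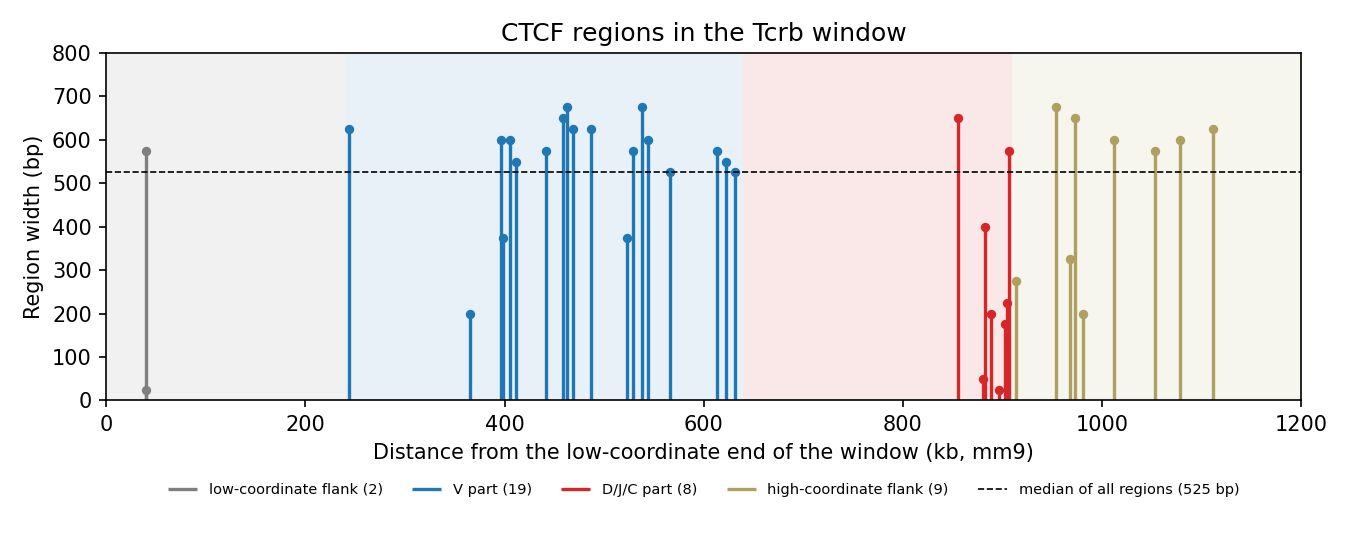
Each line is 1 CTCF region of the Tcrb window, placed by its midpoint as the distance from the low-coordinate end of the window (kb) and drawn to its width (bp). Colours mark the flanks, the V part and the D/J/C part, and the dashed line is the genome median of 525 bp. Of the 19 regions of the V part 16 reach or pass that line, and 6 of the 8 regions of the D/J/C part stay below it.

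Within the V part the regions were not spread evenly. The first, 625 bp wide (40843396 to 40844020), lay 3.395 kb inside the low-coordinate bound of the part, a rounded position drawn at the side of Trbv1. It was followed by 121.175 kb with a single region at the far end, of 200 bp (40965196 to 40965395). In gene order Trbv1 stands apart from the other V segments, with 5 protein-coding genes and 1 pseudogene between it and Trbv2. One of these is Prss58, which encodes a serine protease.

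The remaining 17 regions of the V part fell between 40996446 and 41231445, a stretch of 235 kb in which the median distance between neighbours was 8.4 kb. None was narrower than 375 bp, and 15 of the 17 had at least the genome median width. The stretch was cut after the positions were seen and leaves out the 200 bp region, so its smallest width depends on that cut. A close pair opened this stretch, a region of 600 bp (40996446 to 40997045) and one of 375 bp (40998096 to 40998470) with 1.05 kb between them. Next came regions of 600 bp (from 41005421), 550 bp (from 41010971) and 575 bp (from 41041021).

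A tighter group of 3 full-width regions followed within 9.925 kb. The first was 650 bp wide (41058746 to 41059395). The middle one reached 675 bp (41062696 to 41063370), and the last, from 41068046 to 41068670, measured 625 bp. The group was the only one in the V part with 3 or more regions at most 5 kb apart, and one of its members shared the largest width of the whole Tcrb window, 675 bp. A further 625 bp region began at 41086821.

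Beyond a distance of 35.6 kb the series resumed with a narrow region of 375 bp (41123046 to 41123420). The next were 575 bp (from 41128796), 675 bp (41137771 to 41138445), 600 bp (from 41144321) and 525 bp (from 41165796). After 46.375 kb, the longest distance in this stretch, the last 3 regions of the V part, from 41212696, 41221971 and 41230921, were 575, 550 and 525 bp wide and lay 8.7 and 8.4 kb apart. The last of them ended 8.555 kb before the bound drawn at the side of Trbv30. Counted against gene segments, the V part had 0.559 regions for each of its 34 listed Trbv segments. Without mm9 positions of the segments, no region could be paired with a segment.

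Between the V part and the D/J/C segments lay the longest distance without a region in the Tcrb window, 223.75 kb (41231446 to 41455195). Of the 51640 distances between neighbouring regions of the genome, 1785 (3.46%) were at least as long. For scale, the genome was cut into 2190 tiles of 1.2 Mb, the length of this window. The distance was picked as the longest of its window, so its share among all distances does not mark it as rare. In gene order 8 protein-coding genes and 3 pseudogenes lie between Trbv30 and Trbd1. They include Prss1, Prss2, Prss3, Try4, Try5 and Try10, which encode trypsinogens and related digestive proteases made by the pancreas. The absence of a listed region shows that no peak passed the authors' threshold there. It does not show that CTCF was absent.

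The D/J/C part of Tcrb differed from the V part in the widths of its regions. It was taken as 41.24 to 41.51 Mb, from Trbv30 to Trbv31, and held 8 regions, 29.6 per Mb (12.8 to 58.4). This interval overlapped that of the V part, and the density depends on the bound, since the first 215.195 kb of the part held no region. Its last 7 regions lay within 26.75 kb, of which they covered 6.17%, whereas the 17 regions of the dense V stretch covered 4.12% of 235 kb. Both stretches were cut to their outermost regions after the positions were seen, so these 2 shares do not compare the parts. The 8 regions covered 2300 bp, 0.852% of the whole part, against 2.625% of the V part and 0.865% of the genome. Their median width was 212.5 bp, against 575 bp in the V part and 525 bp in the genome. Of the 8, 2 were full-width (25%, 3.19 to 65.1%), an interval that contains the 35.3% of all regions. Another 2 were at most 75 bp wide (25%), next to 14.1% of all regions. The full-width intervals of both parts overlapped, and neighbouring regions of 1 library are not replicates, so this difference was not tested.

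Both full-width regions stood at the ends of the group. The first, 650 bp (41455196 to 41455845), directly ended the long empty distance and was 24.3 kb away from the next region. The second, 575 bp (41506321 to 41506895), was the last region before the high-coordinate bound of the part, which it approached to 3.105 kb. That bound is a rounded position drawn at the side of Trbv31. In between were 6 regions, each below the genome median width, within 24.4 kb. The first 3 began at 41480146, 41482021 and 41488346 and were 50, 400 and 200 bp wide. The other 3 began at 41496871, 41503146 and 41504321 and were 25, 175 and 225 bp wide. The 25 bp region is a single window of the file, the smallest region that can occur.

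The distances between these 6 regions ran from 1 to 8.325 kb. In the stretch from 41480146 to 41506895 the last 3 regions formed the only group of 3 or more with neighbours at most 5 kb apart, 3.75 kb from end to end. The first pair, of 50 and 400 bp, lay 1.825 kb apart. Joining regions at most 1000 bp apart merged the 175 bp and 225 bp regions into 1 of 1400 bp. Runs of at least 6 consecutive regions below the median width numbered 471 among the 11963 such runs of the genome and held 6.74% of all regions. This run of 6 is therefore one of many, and it was singled out after the widths were seen.

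Trbc1 and Trbc2, the constant genes of the beta chain, lie inside the D/J/C part in gene order, each behind its own Trbd and Trbj segments. Their exons are near-identical copies, and short reads from such copies cannot always be placed. How the authors treated these reads is not given in the sources used here. Neither constant gene could be matched to a region in mm9 coordinates, and the part as a whole had 0.421 regions for each of its 19 listed segments (Trbd, Trbj, Trbc and Trbv31). A rearranged beta chain transgene also carries Trbj and Trbc sequence. Which segments it holds is not given, and its part in the narrow regions was not tested.

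The flanks of Tcrb held 2 and 9 regions, with densities whose intervals overlapped, and the difference was not tested. The low-coordinate flank, 240 kb long with Moxd2, a monooxygenase-like gene, as the neighbour of Trbv1 in gene order, had 8.33 regions per Mb (1.01 to 30.1). Its 2 regions were 575 bp (40639096 to 40639670) and 25 bp (40639696 to 40639720) wide, only 25 bp apart, and 203.675 kb without a region separated them from the V part. At least as long were 1971 (3.82%) of the distances in the genome. This one was singled out for its length, so the share does not mark it as rare.

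The high-coordinate flank of Tcrb held 9 regions in 290 kb, 31.0 per Mb (14.2 to 58.9). Of these, 6 were full-width (66.7%, 29.9 to 92.5%), next to 35.3% of all regions. The V part had a similar share, 63.2%, so a high share of full-width regions was not particular to it. Here gene order continues from Trbv31 to Ephb6, which encodes a kinase-defective Eph receptor present in T cells, and on to Trpv6, which encodes an epithelial calcium channel. The region nearest to the locus was 275 bp (41513246 to 41513520). The widest was 675 bp (41554121 to 41554795), after a distance of 40.6 kb. The median width of the 9 was 600 bp, next to 575 bp in the V part and 212.5 bp in the D/J/C part.

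**Figure D2:**
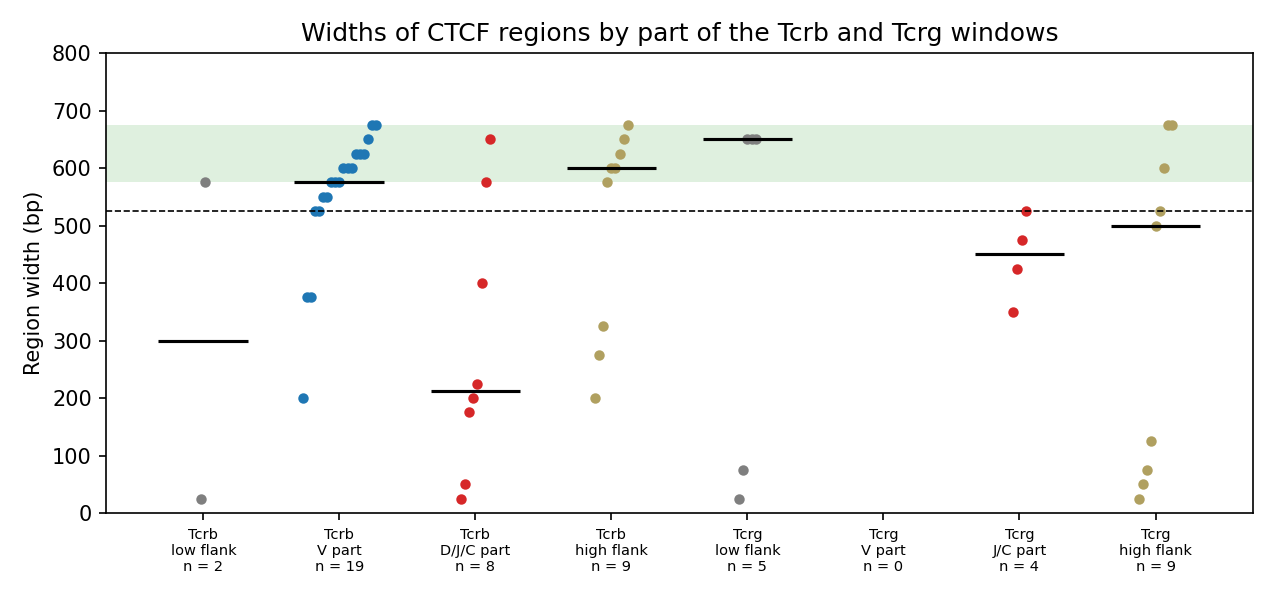
Each point is the width (bp) of 1 CTCF region, by part of the Tcrb and Tcrg windows, and black bars are medians. The green band spans the full-width range of 575 to 675 bp and the dashed line is the genome median of 525 bp. The Tcrb V part has its median inside the band at 575 bp, while the Tcrb D/J/C part has its median at 212.5 bp.

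In Tcrg, with the bounds as drawn, full-width regions were listed in both flanks but not among the 4 regions of the J/C part. The gene order of this locus opens with Trgv7, Trgv4, Trgv6 and Trgv5, followed by Trgj1 and Trgc1, and ends with Trgc4 next to Stard3nl. Trgv5 is the V segment used by skin gamma-delta T cells, and Trgv6 the one used in the reproductive mucosa. The V part, taken as the 20 kb from 19.27 to 19.29 Mb and drawn to hold these first 4 V segments, contained 0 regions. A count of 0 allows up to 3.69 regions at the upper bound of its interval, and 76.4% of all 20 kb tiles of the genome were also empty. The length of the V part is therefore too short for this count to set it apart.

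That count also depended on where the bound was drawn. A region of 650 bp (19269296 to 19269945) ended 55 bp below it and was counted in the flank. With all inner bounds moved 20 kb to lower coordinates, the V part held 2 regions.

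The J/C part of Tcrg, 19.29 to 19.45 Mb, contained 4 regions, 25 per Mb (6.81 to 64.01). None was full-width (0 of 4, upper bound 60.2%), next to 35.3% of all regions. With all inner bounds moved 20 kb to higher coordinates, the part held 10 regions. These included full-width regions of 600 and 675 bp that are counted in the high-coordinate flank here. The 4 regions within the bounds as drawn formed 2 pairs. The first pair was 425 bp (19328171 to 19328595) and 525 bp (19334396 to 19334920) with 5.8 kb between its members, and the second was 350 bp (19375096 to 19375445) and 475 bp (19384846 to 19385320) with 9.4 kb between them. A distance of 40.175 kb separated the pairs. The median width of the 4 was 450 bp, below the genome median of 525 bp and above the 212.5 bp of the Tcrb D/J/C part. The Trgc genes, which encode the gamma constant domains, are related copies as well, and the placing of reads among them was not tested.

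The low-coordinate flank of Tcrg, 270 kb long, held 5 regions. Amph, which encodes amphiphysin, a protein of endocytosis, is the nearest protein-coding neighbour of the locus on this side in gene order. The 2 lowest regions were 75 bp and 25 bp wide (19040046 to 19040120 and 19040146 to 19040170). After 185.4 kb without a region, 3 regions of the same width, 650 bp, followed at 19225571, 19250221 and 19269296, with 24.0 and 18.425 kb between them. The last of these was the region nearest to the V part, and 58.225 kb separated it from the first J/C region.

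**Figure D3:**
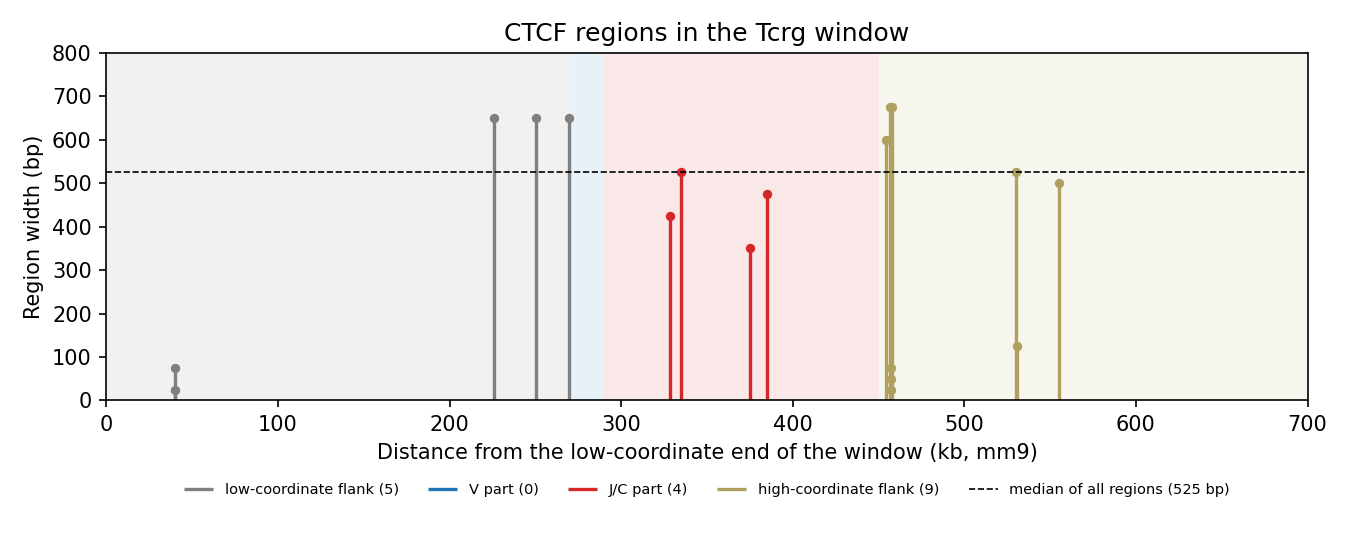
Each line is 1 CTCF region of the Tcrg window, placed by its midpoint as the distance from the low-coordinate end of the window (kb) and drawn to its width (bp). Colours mark the parts and the dashed line is the genome median of 525 bp. The 3 regions of 650 bp lie just before the V part, the 4 regions of the J/C part reach 350 to 525 bp, and a group of 6 regions begins 4.095 kb beyond the J/C part.

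On the other side, the high-coordinate flank of Tcrg held 9 regions in 250 kb, 36.0 per Mb (16.5 to 68.3). Stard3nl, which encodes a late endosome protein, follows Trgc4 there in gene order. Most of these regions belonged to a compact group of 6 within 3.85 kb (19454096 to 19457945), which started 4.095 kb past the bound and 68.775 kb after the last J/C region. The group began with 600 bp (19454096 to 19454695) and 675 bp (19456171 to 19456845), the region widest in this flank together with one at the group's far end. Then came 3 short regions of 50, 75 and 25 bp, and last another of 675 bp (19457271 to 19457945).

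The 5 later members of this group were 25 to 125 bp apart and merged into 1 region of 1775 bp (19456171 to 19457945) once regions at most 500 bp apart were joined. Among the 45457 regions that this joining left in the genome, 239 (0.526%) were at least as wide. With regions at most 1000 bp apart joined, it kept its 1775 bp, a width reached by 2.36% of 43881 regions. With regions at most 100 bp apart joined, the widest region of the window was 975 bp, a width reached by 2.08% of 47421 regions. The group therefore counts as 6, 3 or 2 regions, depending on the gap that is bridged. The other 3 regions of the flank began at 19529896, 19530471 and 19554746 and were 525, 125 and 500 bp wide.

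In Tcrg 9 of 18 regions had another region within 200 bp, in Tcrb 2 of 38 did, and in the genome 18.03%. The 9 came from 3 places in the flanks of Tcrg, where gaps of 25 to 125 bp split them, and joining regions at most 500 bp apart left 12 regions in that window. They are therefore not 9 separate neighbours, and the difference was not tested. Of the 38 Tcrb regions 21 were full-width (55.3%, 38.3 to 71.4%), and of the 18 Tcrg regions 6 (33.3%, 13.3 to 59.0%), next to 35.3% of all regions. The interval for Tcrb lay above the genome share and that for Tcrg contained it. None of the 56 regions was wider than 1000 bp, as 1.04% of all regions were. These intervals treat neighbouring regions as independent, which they need not be.

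As whole windows, neither locus stood out in number. The 38 regions of Tcrb exceeded 77.3% of 2190 tiles of 1.2 Mb, whose median was 17, and the 18 regions of Tcrg exceeded 68.7% of 3756 tiles of 0.7 Mb, whose median was 9. On their own chromosomes the shares were 75.8% and 74.3%. Just outside the windows, the nearest regions to Tcrb were 600 bp (40567821 to 40568420) and 125 bp (41804946 to 41805070), and those to Tcrg were 575 bp each (from 18901771 and from 19711396).

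Set beside the larger antigen receptor loci, the V and D/J/C parts of Tcrb together held 27 regions, 40.3 per Mb (26.6 to 58.6). Igh, the immunoglobulin heavy chain locus, had 51.0 regions per Mb (43.1 to 59.95), an interval that overlaps this one but does not contain 40.3. It does contain the 47.5 of the Tcrb V part alone. Tcra/Tcrd, the locus of the alpha and delta chains, had 98.9 per Mb (85.3 to 114.1), above the upper bounds of 58.6 for both parts of Tcrb and 74.2 for its V part. Igk, the kappa light chain locus, lies on chromosome 6 as Tcrb does and had 5.31 per Mb (3.09 to 8.51), below the lower bounds of 26.6 and 28.6. A single stretch of 1478.2 kb of its 3200 kb window held no listed region, which the interval does not reflect. Full-width shares were 51.9% (31.9 to 71.3%) in both parts of Tcrb together, 63.2% in its V part, 50% (41.7 to 58.3%) in Igh, 39.4% (32.3 to 46.7%) in Tcra/Tcrd and 29.4% (10.3 to 55.96%) in Igk. The intervals of these shares overlapped those of Tcrb. The windows of the other loci include their J and constant segments, so the V part alone is not matched to them, and the differences were not tested.

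**Figure D4:**
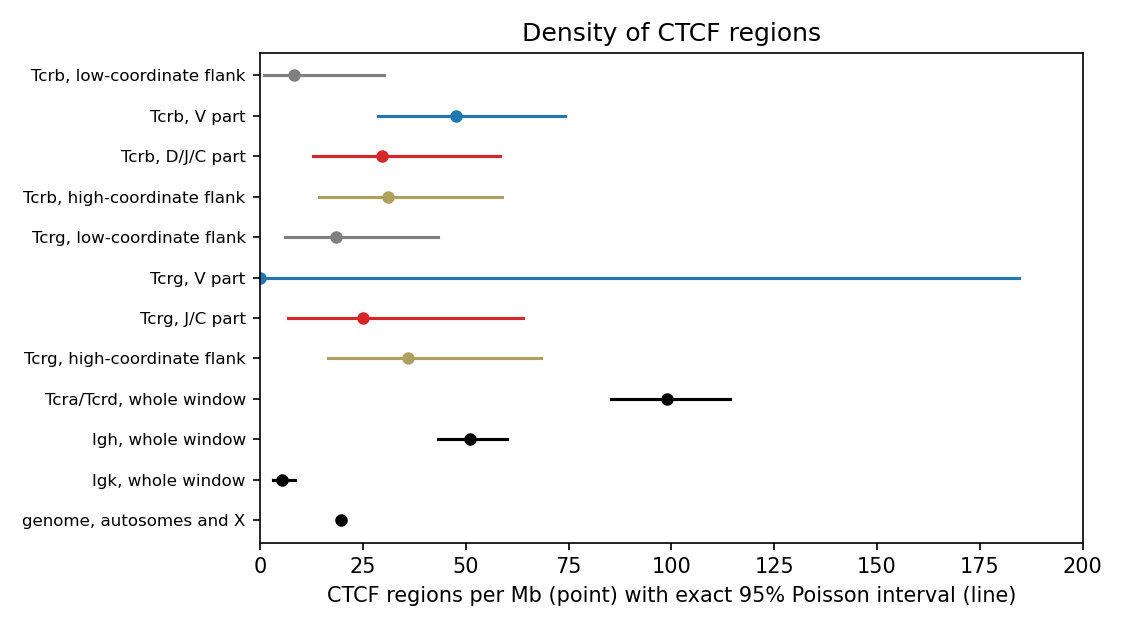
Points are CTCF regions per Mb and lines are exact 95% Poisson intervals, for the parts of the Tcrb and Tcrg windows, 3 other antigen receptor loci and the genome. The Tcrb V part, at 47.5 per Mb, lies beside Igh at 51.0, below Tcra/Tcrd and above Igk, and the 20 kb Tcrg V part has the widest interval.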

How the data were processed

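CTCF ChIP-seq of 1 library from Rag1 -/- thymocytes with a TCRbeta transgene was used, and the input library was not analysed here. Chromatin was fixed with 1% formaldehyde for 10 minutes, per the labels' protocols. Per the submitters' processing notes, Bowtie was the aligner and mm9 the build. The caller of the peaks, the threshold applied, the role of the input and the version of Bowtie are not given in the sources used. What the authors deposited is a list of 912174 windows, each 25 bp long, as chromosome, start and end, with no other value.

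Starts were read as counted from 0 and are printed counted from 1. Adjoining windows (gap 0 bp) were joined, and the 1 mitochondrial region was left out. Inner bounds of the parts are rounded mm9 positions from general knowledge, not checked against an mm9 annotation. Every region of the V and D/J/C parts was named, and in the flanks the nearest, the widest and the groups of at least 3 regions with neighbours at most 5 kb apart. Members, bounds and measures were chosen with earlier results of these data known. Tiles were laid end to end from the start of each chromosome to its last listed window and describe the genome without testing chance. Unsequenced stretches were not masked, so tiles there count as empty and raise the ranks given. The lengths behind the chromosome and genome densities include them too. Poisson and Clopper-Pearson intervals were used. Joining was tested on simulated data. Alternatives joined regions 100, 500 or 1000 bp apart, left out narrow regions, moved the inner bounds by 20 kb, counted any overlap, or changed the tiles. Computation used SciPy 1.17.1, NumPy 2.4.6 and pandas 2.3.3 in Python 3.11.15, with plots from matplotlib 3.10.9.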

Additional observations from a re-analysis of the deposited data

How the results depend on the processing

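Of 110 values recomputed under the alternatives, 88 stayed within 1.5 times the count given, within the interval of the share, median or rank given, or at the same longest distance, and 22 did not. Some of the 88 could not change, since moving only the inner bounds leaves the totals of both windows as they are. Among regions of at least the median width the counts were 25 in the Tcrb window and 8 in the Tcrg window. By part they were then 1 in the low flank and 2 in the D/J/C part of Tcrb, and 3 in the low flank, 1 in the J/C part and 4 in the high flank of Tcrg, since this setting drops narrow regions by construction. The longest distance in Tcrg was 119.175 kb there, and 71.95 kb without regions of at most 75 bp, because the 2 regions below the 185.4 kb distance are then left out. Without such short regions the low flanks held 1 (Tcrb) and 3 (Tcrg). Joining regions at most 100, 500 and 1000 bp apart left 1 region in the low flank of Tcrb each time and 5, 4 and 4 in the high flank of Tcrg. With the inner bounds 20 kb lower the Tcrg low flank held 3 and its V part 2, and with the bounds 20 kb higher its J/C part held 10 and its high flank 3, as the group of 6 regions then fell on the other side. Against tiles of chromosome 13 alone, 74.3% held fewer regions than the Tcrg window, in place of 68.7%. No paired analysis was possible because there is 1 CTCF library. Without counts or depth, a position that is not listed cannot be read as unbound.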
